A study of Mus musculus with 6 samples.

Results

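The 8 genes described here encode enzymes of cholesterol synthesis: Hmgcs1, Mvd, Idi1, Fdps, Fdft1, Sqle, Cyp51 and Dhcr7, in pathway order. They were taken by gene symbol, with no threshold on a measured value, and all 8 were found among the 17739 gene symbols of the table. RNA was sequenced from mammary epithelial organoids (fragments of the gland's epithelium, freed with collagenase and pronase) of FVB mice on lactation day 1. Wild-type animals (3 mice) were set against mice with Nmi conditionally knocked out, labelled Nmi-/- (3 mice), and each mouse gave 1 library, made from the second gland and the third. The libraries are called WT1, WT2 and WT3 (wild-type replicates) and KO1, KO2 and KO3 (knockout replicates). Both groups shared the strain, the day and the enzymatic dissociation, and no drug treatment is named for either. Which Cre line drives the deletion, and in which cells, is not given in the sources used here. The submitters set out to learn what loss of Nmi, an interferon-inducible partner of Myc and STAT proteins, does to proliferation of this epithelium.

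Cholesterol is built from acetyl-CoA through mevalonate, activated isoprene units, farnesyl diphosphate and squalene. Its enzymes sit largely in the cytosol and the endoplasmic reticulum. The transcription factor SREBP-2 raises the genes of the whole route when the membrane runs low in sterol, often together with NF-Y, which binds CCAAT boxes. The lactating epithelium secretes milk fat inside membrane envelopes that contain cholesterol, and the route is known to be active in the gland at this stage.

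The values were FPKM, in which fragments are divided by the length of the gene and by the total of the library, which puts genes of different length on 1 scale. Some entries do not follow a gene's level: Gapdh, a gene that every cell uses, was listed at 0 in WT2, WT3 and KO3 and at 0.0769 FPKM or less in the other libraries, so any order of levels between genes describes the deposited values. Milk protein genes held from 48.9% of the FPKM sum in WT1 to 77.2% in KO3, the libraries at both ends, and genes that take a large share lower the FPKM of the rest. The FPKM sums ran from 379480 to 509450, and 9084 to 10116 genes had an FPKM of at least 1. Nmi had 4.595, 2.82 and 2.32 FPKM in WT1, WT2 and WT3 and 0.188, 0.547 and 0.564 FPKM in KO1, KO2 and KO3, so the libraries followed their labels (log2 fold change -1.54, SE 0.23, adjusted p = 0.372, limma with Benjamini-Hochberg adjustment). Luminal keratins were abundant (Krt8, 198 to 1515 FPKM), as the label of mammary epithelium says. Of 7 adipocyte markers in the table, Adipoq, Plin1 and Retn were listed at 0 in at least 3 libraries, Fabp4 had 157 to 672 FPKM and Lipe 7.99 to 23.3 FPKM. Since Gapdh was listed at 0 too, an entry at 0 does not show that the RNA was absent. All 7 luminal markers together summed to 1116 FPKM in KO3, against 2774 to 5697 FPKM in the other 5 libraries. Krt8, Krt18, Krt19, Epcam, Cdh1 and Cldn3 were each lowest in KO3. Elf5 was not, with 207 FPKM there against 142 to 237 FPKM elsewhere. In bulk RNA, fewer cells of a type and less RNA per cell cannot be told apart.

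Promoter windows in the RefSeq table (build GRCm38.p6, 250 bases before to 50 after an annotated start) were matched for 5 of the 8 genes: Hmgcs1, Mvd, Idi1, Cyp51 and Dhcr7. They are shown because SREBP-2 and NF-Y act through short motifs close to the start of these genes. A window of Hmgcs1, Mvd, Idi1 and Cyp51 is printed on the strand of the gene, with each CCAAT (or ATTGG, the same box on the other strand) and each sterol regulatory element (TCACNCCAC, either strand) in capitals. The windows are chr13:119690101-119690400 (+) for Hmgcs1, chr8:122443373-122443672 (-) for Mvd, chr13:8885356-8885655 (+) for Idi1 and chr5:4104648-4104947 (-) for Cyp51.
Hmgcs1: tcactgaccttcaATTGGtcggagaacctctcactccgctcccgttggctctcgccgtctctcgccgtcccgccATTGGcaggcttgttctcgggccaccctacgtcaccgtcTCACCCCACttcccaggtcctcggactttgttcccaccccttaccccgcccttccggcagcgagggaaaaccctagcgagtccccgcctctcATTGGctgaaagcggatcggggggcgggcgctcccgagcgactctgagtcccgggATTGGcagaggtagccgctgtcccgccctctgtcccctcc
Mvd: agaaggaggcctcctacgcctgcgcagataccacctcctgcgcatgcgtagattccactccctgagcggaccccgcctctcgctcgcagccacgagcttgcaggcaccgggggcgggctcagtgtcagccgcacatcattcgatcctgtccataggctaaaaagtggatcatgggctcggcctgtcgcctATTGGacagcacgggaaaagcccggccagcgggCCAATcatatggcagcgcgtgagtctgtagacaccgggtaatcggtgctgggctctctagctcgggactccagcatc
Idi1: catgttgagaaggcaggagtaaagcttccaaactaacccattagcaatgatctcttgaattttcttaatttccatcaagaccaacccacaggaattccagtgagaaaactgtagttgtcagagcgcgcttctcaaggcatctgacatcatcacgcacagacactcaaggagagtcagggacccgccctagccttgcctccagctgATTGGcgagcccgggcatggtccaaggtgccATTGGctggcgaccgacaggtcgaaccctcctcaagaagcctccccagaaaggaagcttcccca
Cyp51: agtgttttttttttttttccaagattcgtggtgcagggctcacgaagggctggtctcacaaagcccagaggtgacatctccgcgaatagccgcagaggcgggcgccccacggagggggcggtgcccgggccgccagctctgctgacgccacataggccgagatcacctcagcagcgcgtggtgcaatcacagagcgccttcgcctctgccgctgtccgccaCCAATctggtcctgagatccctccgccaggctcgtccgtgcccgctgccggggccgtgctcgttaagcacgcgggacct
The Hmgcs1 window held 4 CCAAT boxes and, among the 5 genes, the only match to TCACNCCAC. This match, TCACCCCAC, has its first base at -137 with the start site as 0. Sterol regulatory elements of other letters were not searched for. Mvd and Idi1 held 2 CCAAT boxes each and Cyp51 held 1. Dhcr7 has 3 windows, of which the one at chr7:143829964-143830263 (+) held 2 CCAAT boxes and the others none. A CCAAT box was thus present in 5 of the 7 windows, against 37.4% of all 32851 windows of that length, and a sterol regulatory element of these letters in 1 of 7, against 1.24% of windows. The 2 motifs share no letters where they match. A match describes letters only, and these data hold no measure of binding.

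By level, the enzymes lay in a band with Idi1 at the top and Fdft1 at the bottom. Over the 6 libraries the means were 18.6 FPKM for Idi1, 13.5 for Sqle, 12.5 for Mvd, 12.0 for Hmgcs1, 10.4 for Fdps, 9.18 for Cyp51, 7.98 for Dhcr7 and 4.71 for Fdft1. Idi1 was the highest of the 8 in 5 libraries, Hmgcs1 in WT1, and Fdft1 was the lowest in all 6. Neighbours between Idi1 and Dhcr7 in that order differed by less than 1 SD of at least 1 of the pair over the libraries, but Idi1 stood above Sqle in 6 of 6 libraries. Dhcr7 stood above Fdft1 in 6 of 6, by more than the SD of either. Among all 9767 genes tested, 16.5% had a higher mean than Idi1 and 56.7% a higher mean than Fdft1. The FPKM of the 8 enzymes summed to 73.0, 78.8 and 75.8 in WT1, WT2 and WT3 and to 76.6, 99.6 and 129 in KO1, KO2 and KO3. KO1 therefore lay inside the wild-type range of this sum, and KO2 and KO3 above it.

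**Figure D1:**
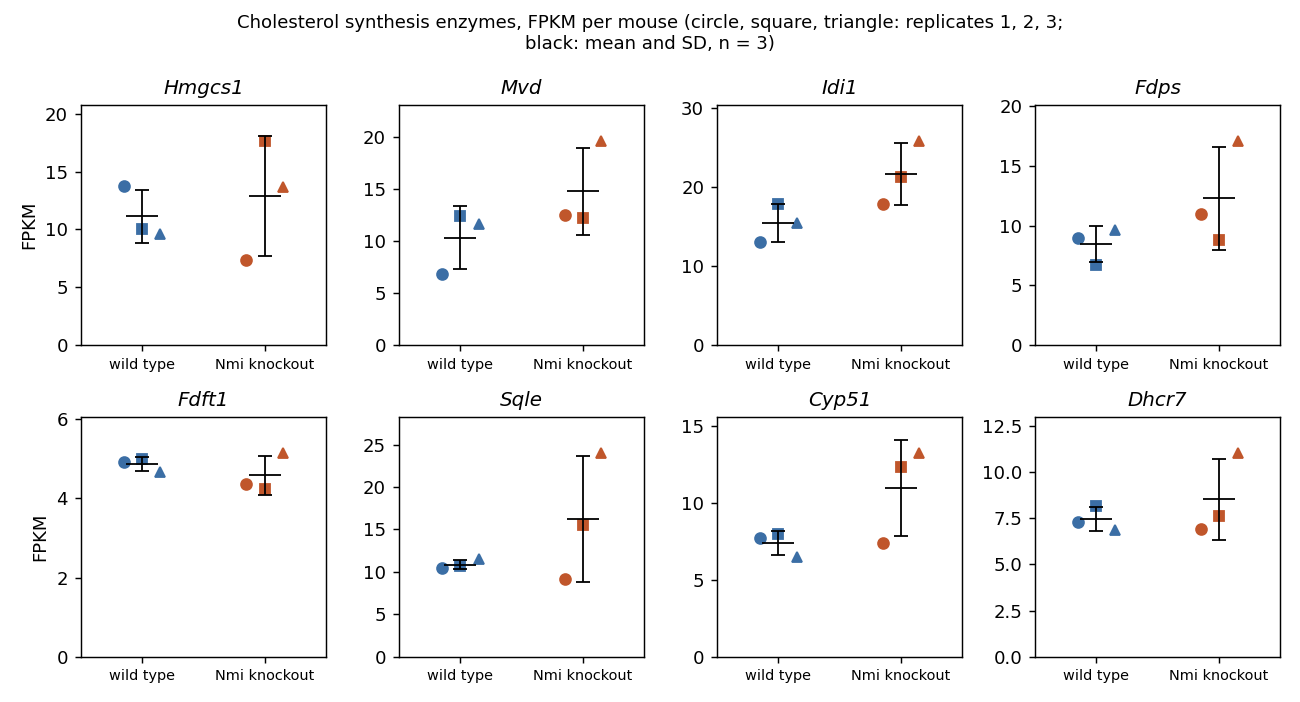
FPKM of the 8 cholesterol synthesis enzymes in each mouse, 1 panel per gene with its own vertical axis from 0; blue points are wild type, orange points Nmi knockout, and black lines the mean with SD (n = 3). The triangle of KO3 is the highest point in 7 panels, and in Hmgcs1 the highest is KO2 at 17.6 FPKM.

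Between the genotypes, 7 of the 8 enzymes had a higher mean log2 level in the knockout, and 0 passed the test (limma, Benjamini-Hochberg adjustment across the 9767 tested genes, threshold 0.05). In the same fit 0.0% of all tested genes were called, and 1.33% (130 genes) had an unadjusted p under 0.05, none of them among the 8. Mvd, Cyp51, Idi1, Fdps and Sqle lay close together, at log2 fold changes of 0.49 for Mvd, 0.48 for Cyp51, 0.46 for Idi1, 0.46 for Fdps and 0.44 for Sqle, while Dhcr7 (0.15), Hmgcs1 (0.14) and Fdft1 (-0.07) were nearer to 0. The median of the 8 was 0.45, beside a median of -0.21 over all tested genes, of which 18.3% lay above 0. After trimmed-mean scaling 43.2% of all genes and 8 of the 8 enzymes lay above 0, with medians of -0.04 and 0.65. Without KO3 the median of the 8 was 0.17 and 6 lay above 0, with a median of -0.08 over all genes. Without both WT1 and KO3 the median of the 8 was 0.16 and 6 lay above 0, beside a median of 0.02 and 57.9% over all genes. Fold changes are knockout minus wild type on the log2(FPKM + 1) scale, which understates changes at low levels.

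**Figure D2:**
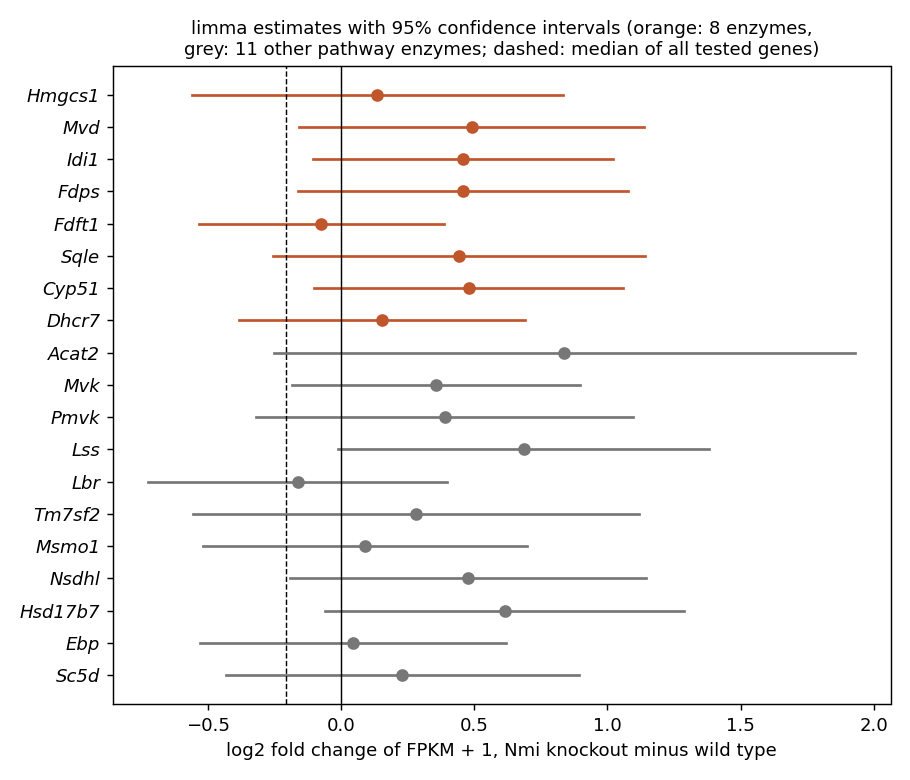
limma estimates of the log2 fold change (knockout minus wild type, FPKM + 1) with 95% confidence intervals on the horizontal axis for the 8 enzymes (orange) and 11 other enzymes of the pathway (grey), with the median of all tested genes at -0.21 as a dashed line. Every interval shown includes 0, and those of Lss (-0.01 to 1.38) and Hsd17b7 (-0.06 to 1.29) come closest to excluding it.

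The mevalonate arm begins with Hmgcs1, the cytosolic synthase that makes HMG-CoA. Hmgcs1 had 13.8, 9.99 and 9.56 FPKM in WT1, WT2 and WT3 and 7.32, 17.6 and 13.7 FPKM in KO1, KO2 and KO3. The knockout held both its lowest and its highest library, so the groups overlapped throughout. The means were 11.1 ± 2.32 and 12.9 ± 5.19 FPKM (SD, n = 3 each). The estimated log2 difference of 0.14 had an SE of 0.32 and a 95% interval of -0.56 to 0.83 (adjusted p = 0.858, limma with Benjamini-Hochberg adjustment). Without KO2 it was -0.11, and without KO1 it was 0.47. Hmgcs1 lies at chr13:119690379-119708260 (+, GENCODE release 21, GRCm38), and 12.1% of its exon bases overlap Gm48342 on the other strand.

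Mvd decarboxylates mevalonate diphosphate to isopentenyl diphosphate, the activated isoprene unit. Mvd had 6.83, 12.4 and 11.6 FPKM in WT1, WT2 and WT3 and 12.6, 12.2 and 19.6 FPKM in KO1, KO2 and KO3. WT1 was low, KO3 was high, and the other 4 libraries lay between 11.6 and 12.6 FPKM whatever their genotype. The log2 fold change of 0.49 (SE 0.29, interval -0.16 to 1.14, adjusted p = 0.768, limma) was 0.25 without WT1, 0.28 without KO3 and 0.038 without both. Its locus is chr8:122433601-122443422 (-), with no overlapping exon of another gene.

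Idi1, which interconverts isopentenyl and dimethylallyl diphosphate, was the only enzyme of the 8 whose groups did not overlap, where 0.778% of all tested genes did not overlap with the knockout higher and 3.83% with it lower. It had 13.02, 17.895 and 15.4 FPKM in WT1, WT2 and WT3 and 17.898, 21.3 and 25.8 FPKM in KO1, KO2 and KO3. The separation was narrow, since WT2 and KO1 nearly coincided. The means were 15.45 ± 2.44 and 21.7 ± 3.94 FPKM, with a log2 fold change of 0.46 (SE 0.26, interval -0.10 to 1.02, adjusted p = 0.768, limma). The exact permutation test of Idi1 alone gave a two-sided p = 0.1, the smallest that 3 against 3 mice allow. Groups of 3 that do not overlap always give this value, so the test adds nothing to the separation. The same permutation test gave p = 0.2 for Mvd and 0.3 to 0.9 for the rest of the 8. Leaving out 1 library at a time gave values from 0.33 to 0.58. The locus of Idi1 is chr13:8885501-8892451 (+), and 9.22% of its exon bases overlap Gm48574 on the other strand.

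Fdps joins these units into farnesyl diphosphate, the branch point to sterols, dolichol, ubiquinone and prenylated proteins. It had 8.97, 6.73 and 9.62 FPKM in WT1, WT2 and WT3 and 10.996, 8.78 and 17.1 FPKM in KO1, KO2 and KO3. KO2 lay inside the wild-type range, and KO3 was 1.90 times the median of the other 5 libraries. The log2 fold change of 0.46 (SE 0.28, interval -0.16 to 1.08, adjusted p = 0.768, limma) was 0.21 without KO3. Fdps is located at chr3:89093588-89101959 (-), and 26.7% of its exon bases are shared with Gm43738 on the same strand, so some reads could have been divided between them.

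Fdft1, the squalene synthase that commits farnesyl diphosphate to sterols, varied least. It had 4.92, 4.99 and 4.66 FPKM in WT1, WT2 and WT3 and 4.36, 4.23 and 5.13 FPKM in KO1, KO2 and KO3, a span of 1.21 times between the extremes, against 1.60 (Dhcr7) to 2.87 times (Mvd) for the other 7. Its log2 fold change was -0.07 (SE 0.21, interval -0.53 to 0.39, adjusted p = 0.881, limma) and turned to 0.11 after trimmed-mean scaling and 0.13 after quantile normalization. The Fdft1 locus is chr14:63145150-63179578 (-). Of its exon bases 18.3% overlap Ctsb, a lysosomal protease gene on the other strand with 151 to 257 FPKM in the 6 libraries. The strand setting of the authors' counting is not given in the sources used here, so the part of Ctsb reads in the Fdft1 values was not tested.

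In the sterol arm, Sqle had the widest spread among the knockout mice of all 8 enzymes. Sqle, the squalene epoxidase and a rate-limiting step of this arm, had 10.5, 10.7 and 11.5 FPKM in WT1, WT2 and WT3 and 9.14, 15.6 and 23.98 FPKM in KO1, KO2 and KO3. The wild-type mice agreed closely, with an SD of 0.550 FPKM around 10.9, whereas the knockout mice had an SD of 7.44 around 16.2 FPKM and ran from below to above all wild-type values. The log2 fold change was 0.44 (SE 0.32, interval -0.26 to 1.14, adjusted p = 0.768, limma), 0.13 without KO3 and 0.78 without KO1. Sqle lies at chr15:59315077-59331192 (+), with no overlapping exon.

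Cyp51, the lanosterol demethylase, had 7.73, 7.96 and 6.504 FPKM in WT1, WT2 and WT3 and 7.41, 12.3 and 13.2 FPKM in KO1, KO2 and KO3. KO1 lay inside the wild-type range, and KO2 and KO3 above it. Cyp51 had the smallest unadjusted p of the 8 (adjusted p = 0.768, limma), with a log2 fold change of 0.48 (SE 0.26, interval -0.10 to 1.06) that ran from 0.34 to 0.715 when 1 library was left out. Cyp51 is located at chr5:4081145-4104746 (-), and 3.76% of its exon bases overlap Akap9 on the other strand, which had 3.96 to 5.58 FPKM.

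Dhcr7, the reductase that ends the pathway with cholesterol, had 7.30, 8.14 and 6.87 FPKM in WT1, WT2 and WT3 and 6.90, 7.64 and 11.02 FPKM in KO1, KO2 and KO3. Only KO3 left the wild-type range. The log2 fold change was 0.15 (SE 0.24, interval -0.38 to 0.69, adjusted p = 0.805, limma) and -0.027 without KO3. Dhcr7 maps to chr7:143823145-143848410 (+), with no overlapping exon.

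**Figure D3:**
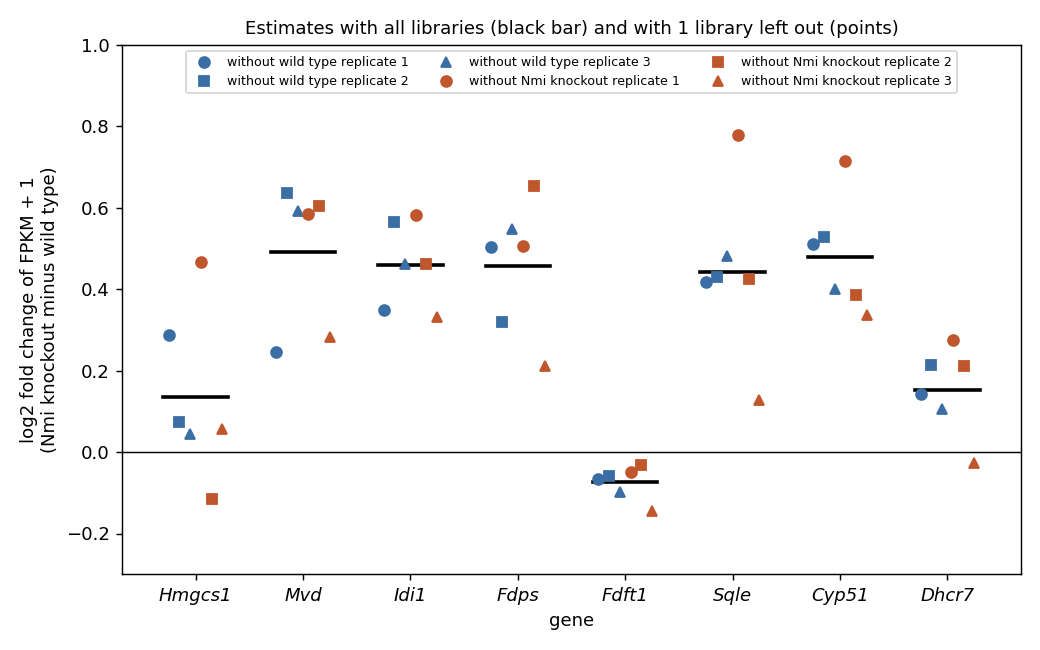
log2 fold change (knockout minus wild type, FPKM + 1) of each enzyme with all 6 libraries (black bar) and with 1 library left out (points; the blue circle, square and triangle leave out WT1, WT2 and WT3, the orange ones KO1, KO2 and KO3). Leaving out KO3 gives the lowest estimate for Idi1, Fdps, Fdft1, Sqle, Cyp51 and Dhcr7, and Hmgcs1 runs from -0.11 to 0.47.

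Across the libraries, KO3 was the highest of the 6 for 7 of the 8 enzymes, all but Hmgcs1, where 7.74% of all tested genes had their highest value there. Relative to the median of the other 5 libraries, its level was 2.25 times for Sqle, 1.90 for Fdps, 1.71 for Cyp51, 1.61 for Mvd, 1.51 for Dhcr7, 1.44 for Idi1, 1.37 for Hmgcs1 and 1.10 for Fdft1. WT1 was the lowest library for 2 of the 8, Mvd and Idi1, beside 6.3% of all tested genes. KO3 also had the highest milk protein share (77.2%) and the lowest luminal marker sum (1116 FPKM), though Elf5 was not lowest there. The highest sum of the 7 macrophage markers was also that of KO3, 17.9 FPKM against 8.58 to 15.2 FPKM elsewhere. Among these markers C1qa (5.03 FPKM), C1qb (4.99) and C1qc (3.36) were highest in KO3, Cd68 was lowest there (3.35 FPKM against 5.03 to 6.94 elsewhere), and Adgre1 had 0.210 FPKM or less in every library. With the milk protein share as a covariate the median log2 fold change of the 8 enzymes was 0.27 in place of 0.45, and that of Mvd was 0.15 in place of 0.49. The part of the marker sums in the enzymes' levels was not tested.

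KO2 stood well above KO1 in some enzymes and close to it or below it in others. KO2 was 2.40 times KO1 for Hmgcs1, 1.70 times for Sqle and 1.66 times for Cyp51, but 1.19 times for Idi1, 1.11 for Dhcr7, 0.972 for Mvd, 0.971 for Fdft1 and 0.798 for Fdps. A ratio over 1.5 was thus seen for 3 of 8 enzymes, beside 16.0% of all tested genes. With 1 library on each side these ratios have no replicate check. The 8 basal and myoepithelial markers summed to 1311 FPKM in KO2 and 360 FPKM in KO1, with 386 to 978 FPKM in the other 4 libraries. Acta2 gave much of this, with 724 FPKM in KO2 and 138 FPKM in KO1. Of the 8, 6 had a ratio over 1.5 between KO2 and KO1, while Trp63 (1.25) and Oxtr (1.21) did not. The 8 fibroblast markers summed to 61.8 FPKM in KO2 and 34.1 FPKM in KO1. The part of these markers in the difference of the enzymes was not tested.

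A ratio of 2 enzymes within a library does not depend on the library total. Dhcr7 was taken as the divisor after the values were seen, because it varied least among the enzymes with no overlapping exon. The ratio of Idi1 to Dhcr7 was 1.78, 2.20 and 2.25 in WT1, WT2 and WT3 and 2.59, 2.79 and 2.34 in KO1, KO2 and KO3, without overlap. That of Cyp51 to Dhcr7 was 1.06, 0.978 and 0.946 in wild type and 1.07, 1.61 and 1.20 in the knockout, also without overlap, but by a margin of 0.01 between WT1 and KO1. The ratios of the other 5 enzymes to Dhcr7 overlapped between the genotypes. Of all tested genes, 0.225% had a ratio to Dhcr7 that did not overlap with the knockout higher. Since Dhcr7 was chosen with these values in view, the ratios are given as a description.

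A further 11 enzymes of the route gave no calls either, as 0 passed the test in either direction. Of them 10 had a log2 fold change above 0, beside 18.3% of all tested genes. Their median was 0.36, beside -0.21 over all tested genes. Lss, which cyclizes squalene epoxide to lanosterol, had the smallest unadjusted p of them (adjusted p = 0.768, limma), with 1.12, 1.99 and 2.36 FPKM in WT1, WT2 and WT3 and 2.74, 2.21 and 6.41 FPKM in KO1, KO2 and KO3. Acat2, the cytosolic thiolase at the entry, spanned 7.03 times, from 2.35 FPKM in KO2 to 16.5 FPKM in KO3. The other log2 fold changes were 0.61 for Hsd17b7, 0.48 for Nsdhl, 0.39 for the phosphomevalonate kinase gene Pmvk, 0.36 for Mvk, 0.28 for Tm7sf2, 0.23 for Sc5d, 0.09 for Msmo1, 0.04 for Ebp and -0.16 for Lbr. KO3 was the highest library for 7 of the 11, beside 7.74% of all tested genes, the exceptions being Lbr, Msmo1, Ebp and Sc5d. Of the 11, 2 had a ratio over 1.5 between KO2 and KO1, Msmo1 (1.90) and Sc5d (1.57). This count lies near the share of all tested genes, 16.0%.

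**Figure D4:**
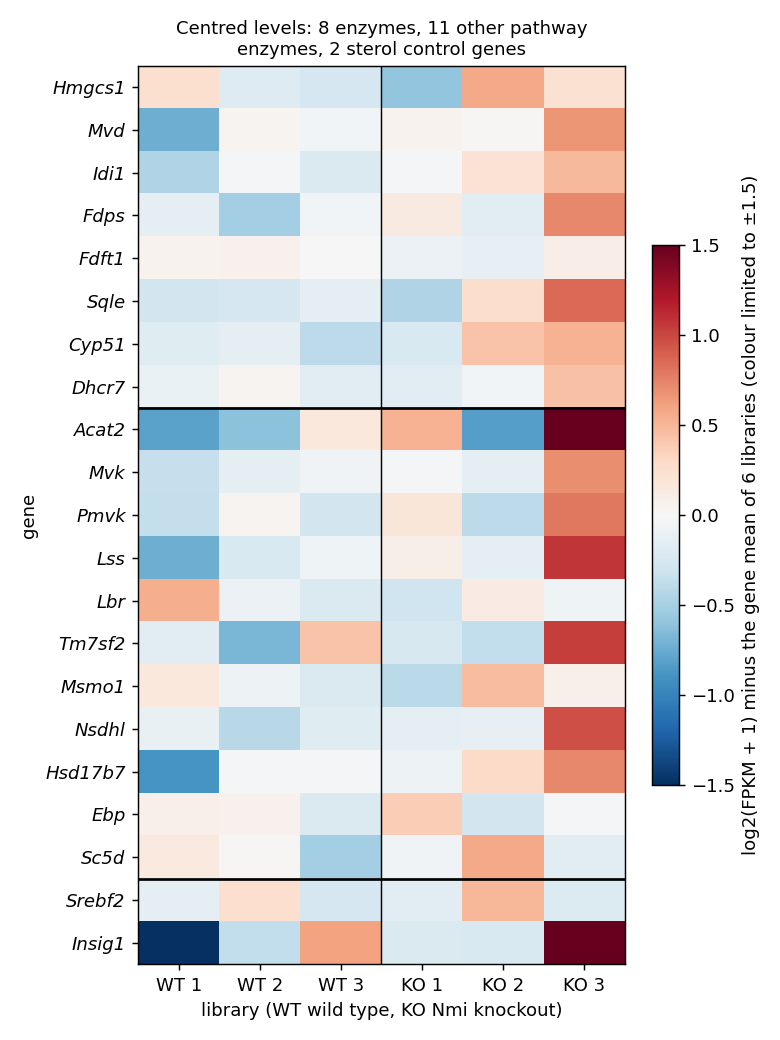
log2(FPKM + 1) minus the mean of the 6 libraries for each gene (rows: the 8 enzymes, 11 other enzymes of the pathway, then Srebf2 and Insig1; columns: libraries), with red above and blue below the gene's mean and the colour limited to ±1.5. The column of KO3 is red for most rows, and Hmgcs1, Sqle and Cyp51 are red in KO2 and blue in KO1.

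Of 11 genes of SREBP-2 control and cholesterol uptake, 10 were tested, 4 lay above 0 and 6 below, and 0 passed the test. Their median was -0.03, beside -0.21 over all tested genes, of which 18.3% lay above 0. Srebf2, which encodes SREBP-2, had a mean of 20.97 ± 4.12 FPKM over the wild-type mice and 22.8 ± 6.91 FPKM over the knockout mice (SD, n = 3 each), which is 0.09 on the log2 scale (SE 0.28). Insig1, a sterol-regulated anchor of the SREBP complex, spanned 10.7 times, with 11.3, 26.9 and 53.8 FPKM in WT1, WT2 and WT3 and 30.1, 29.8 and 121 FPKM in KO1, KO2 and KO3. By ratio, its wild-type mice differed more among themselves than any of the 8 enzymes did over all 6 libraries. The genes with the highest means in this list were Scarb1 (47.7 FPKM), Insig1 (45.5), Npc2 (36.0) and Srebf2 (21.9).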

How the data were processed

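RNA of 6 mice was sequenced, 1 library each, and the genotypes were taken from the labels. The authors deposited FPKM values for 17739 gene symbols; the submitters' processing notes name FastQC, TopHat, SAMtools and Cufflinks with the builds mm10 and GRCm38. Their versions, the annotation and the strand setting are not given.

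The 9767 genes that reached an FPKM of 1 in 3 or more libraries, all 8 enzymes among them, were tested with limma 3.58.1 in R 4.3.3 on log2(FPKM + 1), with an intensity trend, two-sided, and Benjamini-Hochberg adjustment at 0.05. The code was tested on simulated data. Read counts are not part of these values and the depth is unknown; among 456 genes of low FPKM the most frequent ratio to WT1 put the relative depth between 0.966 and 1.11, which covers small differences only. The spread between mice gave the precision.

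The members, lists and alternatives were chosen with earlier results of these data known. Some genes of the lists are not reported here, and the list counts leave them out. The text names the 8 enzymes, 11 other pathway enzymes, Nmi, the 4 tested genes with the highest mean FPKM of each list on SREBP-2 control, sterol removal and other uses of farnesyl diphosphate, and the 10 genes nearest to the enzymes' mean profile. Further lists were milk proteins and markers of luminal, basal, adipocyte, fibroblast, endothelial, macrophage and lymphocyte cells, whose genes are named only as examples picked after their values were seen. Coordinates are from GENCODE mouse release 21. BLAST 2.17.0 against its transcripts found 0 genes that match 50% or more of an enzyme's longest transcript at 95% identity. Alternatives were another pseudocount, other filters, 3 scalings, other variance models, a milk covariate and leaving out libraries.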

Additional observations from a re-analysis of the deposited data

How the results depend on the processing

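In 16 alternatives, 0 of the 8 enzymes passed the threshold (smallest adjusted p = 0.402, for Mvd and Fdps). Mvd, Idi1, Fdps, Sqle and Cyp51 had a positive sign in all 16, but with library quality weights Sqle was 0.029 (SE 0.21), Mvd 0.12, Cyp51 0.13 and Idi1 0.14. Fdps did not shrink with them, at 0.55 (SE 0.18, adjusted p = 0.419, limma) against 0.46 without weights. Hmgcs1 was -0.14 and Dhcr7 -0.10 with these weights, which were estimated gene by gene. The weights were 0.417, 5.50 and 0.786 for WT1, WT2 and WT3 and 2.67, 0.677 and 0.307 for KO1, KO2 and KO3. WT2 and KO1 thus counted most in their groups. Fdft1 was 0.11 after trimmed-mean scaling, 0.13 after quantile normalization and 0.11 after scaling outside the milk protein genes. These scalings moved the median of all genes from -0.21 to between -0.04 and -0.01 and the share of genes above 0 from 18.3% to between 43.2% and 47.8%, with 8 of 8 enzymes above 0. With the milk share as a covariate 48.4% of genes and 7 of 8 enzymes lay above 0 and the median of the 8 was 0.27. Dhcr7 was -0.0373 without both WT1 and KO3. With 1 library left out, Hmgcs1 ran from -0.11 to 0.47 and Dhcr7 from -0.0267 to 0.28.

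The median of the 8 enzymes was 0.68 after quantile normalization, 0.0725 with quality weights and 0.16 without both end libraries, and ran from 0.17 to 0.54 with 1 library left out. The number of enzymes whose groups did not overlap was 1, but 2 under each of the 3 scalings, where 2.24% to 2.58% of all tested genes did not overlap with the knockout higher. It was 2 without both end libraries (1 higher and 1 lower, beside 8.99% and 6.04% of all genes). It was 1 to 3 with 1 library left out. There 1.64% to 4.12% of all genes did not overlap with the knockout higher and 4.43% to 28.1% with it lower. Smaller groups separate more often, but the group sizes are the same in all of these settings. The share with the knockout lower was 4.43% without WT1 and 28.1% without KO2. The number of genes called over the table was 0, but 2 with quality weights (Nmi and Cdk5rap1) and 1 without both end libraries. Genes with an unadjusted p under 0.05 numbered 130, but 1142 with quality weights, 1168 without KO2 and 25 without WT1. The cause of these shifts was not tested. No paired analysis was possible because the labels give each mouse its own number and no shared litter or day. A library left out leaves 2 mice in its group, and the 95% interval of an enzyme's log2 fold change was wide enough to hold both 0 and a value above 0.38.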

Other observations

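Farnesyl diphosphate also feeds other routes. Of 11 genes on its routes to dolichol, ubiquinone and prenylated proteins, 9 were tested. Of the 9, 1 had a log2 fold change above 0, 8 lay below, and 0 passed the test, with a median of -0.19. Over all tested genes the median was -0.21 and 18.3% lay above 0, so these counts lie near the background, and a difference from the sterol enzymes was not tested. Ggps1, which makes geranylgeranyl diphosphate, had 7.52, 6.37 and 5.74 FPKM in WT1, WT2 and WT3 and 5.23, 5.54 and 4.50 FPKM in KO1, KO2 and KO3, without overlap, where 3.83% of all tested genes did not overlap with the knockout lower (log2 fold change -0.31, SE 0.22, adjusted p = 0.768, limma). It is named after its values were seen. The 4 with the highest means were Nus1 (25.6 FPKM), Rabggtb (14.0), Fnta (8.87) and Dhdds (7.35), with log2 fold changes of -0.13, -0.19, -0.48 and -0.23.

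Of 10 genes of oxysterol response, esterification and efflux, 4 were tested and 0 passed: Apoe (54.2 FPKM on average, log2 fold change 0.22), Nr1h2 (18.5, -0.39), Mylip (8.55, -0.18) and Abca1 (5.43, -0.52). Abca1, the cholesterol exporter, had 12.5 FPKM in WT3 and 2.36 to 5.46 FPKM in the other 5 libraries.

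The 10 tested genes nearest to the enzymes' mean centred profile over the 6 libraries, by root-mean-square distance on the log2 scale, were E130102H24Rik (0.063), Cog5, Taf4b, Mmachc, Nod2, Panx1, Padi4, Slc41a1, Usp53 and Ext1 (0.099). Of the 11 other pathway enzymes described, Mvk (distance 0.167) ranked 94 and Acat2 (0.737) ranked 9136. The measure favours genes of small range, and no test was made of it.

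The 7 endothelial markers summed to 66.2 to 143 FPKM and the 5 lymphocyte markers in the table to 0.194 FPKM or less. The 7 adipocyte markers in the table summed to 165 to 683 FPKM, of which Fabp4 alone gave 157 to 672 FPKM.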
